A study of Mus musculus with 2 samples.

Results

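The cells described here are the oxytocin-rich cells of the newborn mouse hypothalamus: single cells with at least 300 detected genes and at least 10 unique molecular identifiers (UMIs, each standing for 1 captured RNA molecule) of Oxt, the gene of the oxytocin precursor. They were chosen by their Oxt count, so a high Oxt level in them is not a result. There were 79 such cells among 5260 cells kept, 10 in the Sim1Het library and 69 in the Control library. The Sim1Het library came from CD-1 pups labelled Sim1-Cre;tdTomato+/-;Sim1+/-, which carry Sim1-Cre, a tdTomato reporter (Ai14) and loss of 1 copy of Sim1, and the Control library from CD-1 pups labelled Sim1-Cre;tdTomato+/-. Both were made from hypothalami of 6 pooled pups of postnatal day 1 to 4, dissociated with papain and sorted for live tdTomato-positive cells. The sort aims at cells that expressed Cre, or whose precursors did, and its purity was not tested. RNA was counted by Drop-seq, a droplet method that here reads the 3' ends of transcripts. Each genotype had a single library, so no replicate checks a genotype difference, no p-value is given, and differences in age, background or preparation between the pools cannot be told apart from genotype.

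Oxytocin and vasopressin are small peptide hormones made by large (magnocellular) neurons of the paraventricular and supraoptic nuclei, which send their axons to the posterior pituitary and release the hormones into the blood. Each is cut from a precursor that also contains a neurophysin, the carrier protein of the hormone within the secretory granule. The neighbouring genes Oxt and Avp arose by duplication, and in adult rodents most magnocellular neurons make mainly 1 of the hormones. SIM1, a bHLH-PAS transcription factor that works as a dimer with ARNT2, and OTP, a homeodomain factor, are both needed in mice for these neurons to form.

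The oxytocin-rich cells differed widely in Avp. Of the 79, 58 also held at least 10 Avp UMIs (8 Sim1Het and 50 Control cells), and in all 58 Avp exceeded Oxt. The other 21 (2 Sim1Het and 19 Control cells) held 0 to 3 Avp UMIs. No oxytocin-rich cell lay between 3 and 171 Avp UMIs, so the split at 10 Avp UMIs, which was chosen after the values were seen, is the same for any limit in that gap. The data therefore go against the working label of oxytocin neurons for most of these cells, and they are called oxytocin-rich only by the rule that picked them. The 21 are called low-Avp and the 58 high-Avp oxytocin-rich cells.

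**Figure D1:**
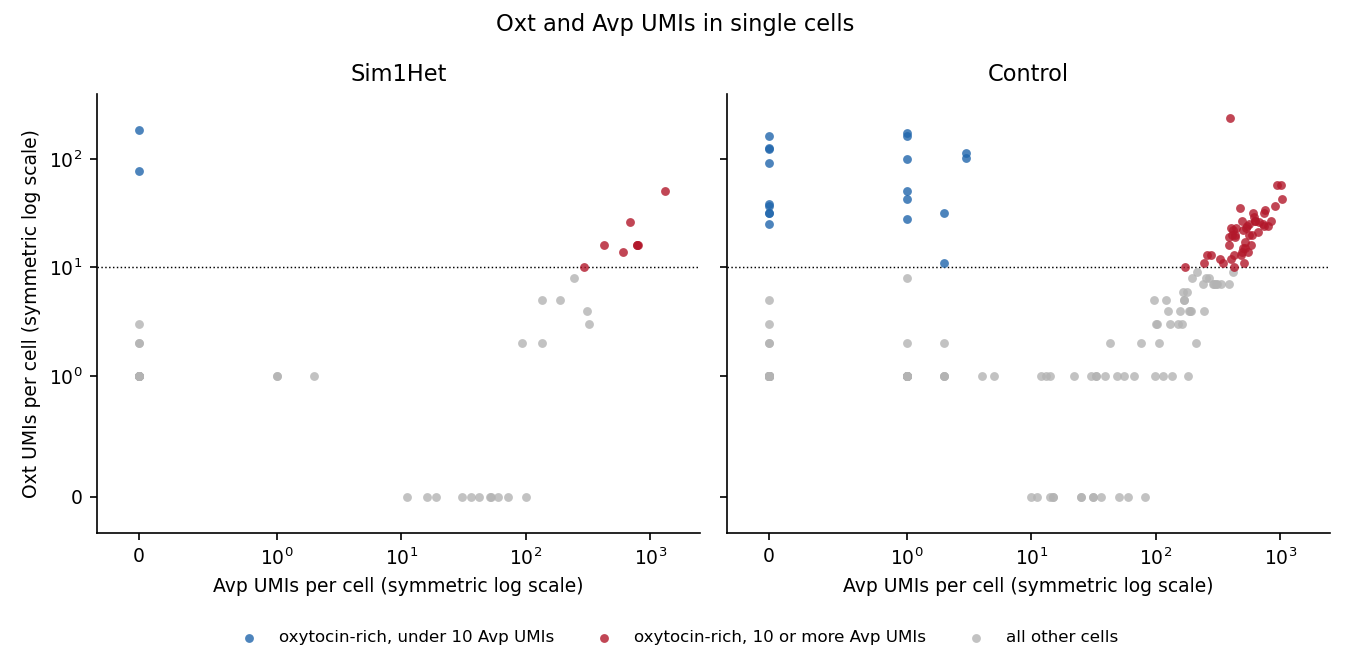
Oxt UMIs (y axis) against Avp UMIs (x axis) per cell, on symmetric log scales, in the Sim1Het library (left) and the Control library (right). Each point is 1 cell, cells with 0 Oxt and under 10 Avp UMIs are not drawn, and the dotted line marks 10 Oxt UMIs. The low-Avp cells stand at 0 to 3 Avp UMIs, the high-Avp cells at 171 or more, and the high-Avp cells continue a band of cells that lie below the dotted line.

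Because the split rests on telling Oxt from Avp, the stretch in which their transcripts cannot be told apart is shown first. The longest identical run in the Oxt and Avp transcripts (GENCODE M21, mm10) is 127 bases long and lies in the neurophysin-coding part, from the last bases of exon 1 into exon 2. It spans chr2:130576328-130576715 on the plus strand for Oxt and chr2:130581133-130582411 on the minus strand for Avp, intron 1 included in both. The lines give it 5′ to 3′ in capitals, with 20 bases of each transcript on either side in lower case.
Oxt: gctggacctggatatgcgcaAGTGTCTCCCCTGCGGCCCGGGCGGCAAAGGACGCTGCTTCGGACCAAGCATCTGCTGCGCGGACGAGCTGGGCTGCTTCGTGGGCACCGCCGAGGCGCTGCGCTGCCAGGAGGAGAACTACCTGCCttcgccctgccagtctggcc
Avp: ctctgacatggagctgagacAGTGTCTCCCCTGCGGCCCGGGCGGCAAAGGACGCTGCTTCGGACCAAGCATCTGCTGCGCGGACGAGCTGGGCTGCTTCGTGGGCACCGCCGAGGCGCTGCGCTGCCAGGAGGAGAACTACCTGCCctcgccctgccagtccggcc
In Oxt, whose transcript has 537 bases, the run ends 255 bases before the 3' end, and in Avp, with 577 bases, it ends 307 bases before it. Counting runs of at least 20 identical bases, 27.9% of the Oxt transcript and 26% of the Avp transcript were shared, and the last 216 bases of Oxt and the last 268 bases of Avp held no such run. A read inside a shared run cannot be assigned to 1 of the genes by its sequence, and the part of such reads in the counts was not tested. Low-Avp cells with up to 174 Oxt UMIs in Control and 185 in Sim1Het held 3 or fewer Avp UMIs. That bears only on Oxt reads counted as Avp, and Avp reads counted as Oxt, which matter for high-Avp cells, were not tested.

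The 250 bases before each start site are shown as well, since the cells differ in their Oxt and Avp counts. They are from RefSeq (GRCm38.p6), at chr2:130575919-130576168 on the plus strand for Oxt and chr2:130582589-130582838 on the minus strand for Avp, 5′ to 3′ along the gene. Capitals mark matches on either strand to TGACC, the core of the site of many nuclear receptors, or to ACGTG, a core bound by bHLH-PAS proteins.
Oxt promoter: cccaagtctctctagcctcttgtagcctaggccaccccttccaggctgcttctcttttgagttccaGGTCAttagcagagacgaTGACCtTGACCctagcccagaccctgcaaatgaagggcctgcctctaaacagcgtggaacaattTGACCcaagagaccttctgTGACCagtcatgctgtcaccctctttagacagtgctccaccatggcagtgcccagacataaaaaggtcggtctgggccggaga
Avp promoter: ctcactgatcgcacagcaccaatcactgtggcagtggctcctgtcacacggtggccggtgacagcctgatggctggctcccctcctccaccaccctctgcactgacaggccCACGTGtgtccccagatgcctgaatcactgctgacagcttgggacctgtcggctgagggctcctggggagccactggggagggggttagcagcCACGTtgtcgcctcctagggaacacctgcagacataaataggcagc
The Oxt window held 5 matches to TGACC and no match to ACGTG, and the Avp window held 3 matches to ACGTG, of which 2 overlap in a palindrome, and no match to TGACC. Among 27025 mouse promoter windows of this length, 34.9% held TGACC and 16.6% held ACGTG, while 0.244% held at least 4 matches to TGACC. A match is a description of the letters and not a site, and both motifs were picked from general knowledge of these factors.

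Oxytocin-rich cells made up 0.408% of Sim1Het cells (10 of 2454, 95% Clopper-Pearson interval 0.196 to 0.748%) and 2.46% of Control cells (69 of 2806, 1.92 to 3.10%). The Sim1Het share was 0.166 times the Control share, with a counting interval of 0.0761 to 0.323. The low-Avp share was 0.120 times the Control share in Sim1Het (interval 0.0136 to 0.499) and the high-Avp share 0.183 times (0.0749 to 0.389). These intervals cover counting error only, not the spread between pups or preparations, and each compares 1 library with 1 library.

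Depth bears on these shares, because a limit of 10 UMIs is easier to pass in a deep cell. Oxytocin-rich cells had a median of 4818 UMIs in Sim1Het and 3291 UMIs in Control, against 1575 and 1756 UMIs in the other cells of the same libraries. Their mitochondrial share was 0.730% in Sim1Het and 0.938% in Control, against 1.04% and 1.15% in the other cells. Just inside the limit, at 10 or 11 Oxt UMIs, stood 1 Sim1Het and 6 Control cells, and just outside, at 8 or 9 UMIs, 1 Sim1Het and 6 Control cells. All but 1 of the Control cells on each side of the limit, and both Sim1Het cells, held at least 10 Avp UMIs.

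In the low-Avp cells, Oxt exceeds Avp by the rule that picked and split them, so the counts are given only as a description. The 2 Sim1Het cells held 78 and 185 Oxt UMIs and 0 Avp UMIs. The 19 Control cells held 11 to 174 Oxt UMIs with a median of 51, and 9 of them held 0 Avp UMIs. Summed, Oxt made up 4.77% of all UMIs in the Sim1Het and 2.37% in the Control low-Avp cells. The Control cell with 11 Oxt UMIs was also the deepest of all, with 9183 UMIs, and the others held at least 25.

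In the high-Avp cells, Oxt was a small fraction of Avp. The 8 Sim1Het cells held 10 to 51 Oxt UMIs (median 16) beside 293 to 1327 Avp UMIs (median 733). The 50 Control cells held 10 to 238 Oxt UMIs (median 21.5) beside 171 to 1035 Avp UMIs (median 518.5). Per 100 Avp UMIs this was 2.01 to 3.84 Oxt UMIs in Sim1Het (median 2.87) and 2.14 to 60.2 in Control (median 4.29), the highest being a cell with 238 Oxt and 395 Avp UMIs. Avp alone made up 14% of all UMIs in the Sim1Het and 14.6% in the Control high-Avp cells. Across the high-Avp cells, Oxt and Avp UMIs had a Spearman rho of 0.68 in 8 Sim1Het and 0.69 in 50 Control cells, and a Pearson r of 0.85 and 0.15, as a description of cells that share a library and differ in depth.

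Cells with at least 10 Avp UMIs that stayed under the Oxt limit also held some Oxt. Summed, Oxt made up 1.49% of Oxt plus Avp UMIs in 18 such Sim1Het cells and 2.295% in 61 such Control cells, against 2.82% and 4.67% in the high-Avp oxytocin-rich cells, which the limit picked for high Oxt. Below 50 Avp UMIs, 6 Sim1Het cells held 0 Oxt UMIs and 20 Control cells held 11. Of cells with at least 400 Avp UMIs, 7 of 7 in Sim1Het and 39 of 40 in Control passed the limit. Free RNA of Oxt and Avp stayed under 10 UMIs in cells with at least 5 UMIs of glial markers. Of these, 1 of 47 in Sim1Het and 1 of 34 in Control held Oxt, with at most 1 UMI. Avp was found in 2 of the 47, with at most 2 UMIs, and in 8 of the 34, with at most 1 UMI. These glial-marker cells were shallower than oxytocin-rich cells, with medians of 879 against 4818 UMIs in Sim1Het and 1263 against 3291 in Control.

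Other markers of the lineage were higher in the oxytocin-rich cells than in the rest. Per GENCODE M21 (mm10), Oxt and Avp lie on chromosome 2, Angpt1 on chromosome 15, Caprin2 on chromosome 6 and Otp on chromosome 13. Levels are UMIs summed over cells per 1000000 UMIs (CPM), with 95% counting intervals on ratios, which are too narrow because UMIs of 1 cell are not independent. Angpt1, which encodes a secreted ligand of the endothelial receptor TIE2, was at 410 CPM in Sim1Het oxytocin-rich cells against 26.6 CPM in the other Sim1Het cells, a ratio of 15.4 (9.03 to 25.02), and of 3.30 when cells were chosen at 20 Oxt UMIs. In Control it was at 547 CPM against 34.9 CPM, a ratio of 15.7 (12.6 to 19.5). Caprin2, which encodes an RNA-binding protein known to bind vasopressin mRNA in the rat hypothalamus, was at 475 against 39.5 CPM in Sim1Het (ratio 12.03, 7.38 to 18.7) and at 344 against 37.8 CPM in Control (ratio 9.10, 7.02 to 11.7). Otp was at 454 against 222 CPM in Sim1Het (ratio 2.04, 1.26 to 3.14) and at 679 against 336 CPM in Control (ratio 2.02, 1.72 to 2.36). Avp was at 122948 against 418 CPM in Sim1Het and at 109249 against 1354 CPM in Control, ratios of 294 and 80.7 that were 89.3 and 39.0 at 20 Oxt UMIs.

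A UMI count depends on depth, so cells were also thinned to 857 UMIs each, which left out 613 Sim1Het and 156 Control other cells. Angpt1 was then found in 3 of 10 Sim1Het and 25 of 69 Control oxytocin-rich cells (36.2%), against 1.69% and 2.71% of other cells, where the unthinned shares were 70% and 65.2% against 3.93% and 5.37%. In Control, Angpt1 was found in 46% of high-Avp cells and in 2 of 19 low-Avp cells (10.5%), which is not above the share in Control glial-marker cells (11.8%, 4 of 34).

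Against all other cells of the same library, 12952 genes with at least 50 UMIs over all cells were compared, and a gene was called at a ratio of 2 or more on a log2 scale with a pseudocount worth 1 UMI of the smaller set. In Sim1Het 3.95% of genes were called higher and 13.8% lower, and in Control 3.37% and 17.3%. With CPM computed without Oxt and Avp, the 512 higher and 1787 lower genes of Sim1Het became 683 and 1384, and the 436 and 2238 of Control became 685 and 1819. The higher genes shared by both libraries numbered 73, which is 14.3% of the Sim1Het and 16.7% of the Control calls. The lower genes shared numbered 515, or 28.8% and 23.0%. These counts are background for the lists that follow, and many rest on few UMIs.

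The genes highest in oxytocin-rich cells included Pdyn, which encodes the opioid precursor prodynorphin, a known product of vasopressin neurons. It was at 346 against 15.2 CPM in Sim1Het (ratio 22.8, 12.4 to 39.3) and at 140 against 14.8 CPM in Control (ratio 9.43, 6.21 to 14.1). Kcnh1, which encodes a voltage-gated potassium channel, was at 151 against 4.49 CPM in Sim1Het (ratio 33.7, 12.2 to 80.5) and at 71.9 against 6.69 CPM in Control (ratio 10.7, 5.82 to 19.1). Both were higher in both libraries, with a UMI in 6 or 7 of 10 Sim1Het cells. Gal, the galanin precursor, was at 1490 against 81.6 CPM in Sim1Het (ratio 18.3, 13.96 to 23.6) and at 579 against 105 CPM in Control (ratio 5.54, 4.60 to 6.64). Pcsk1, a protease that cuts prohormones, was at 497 against 28.3 CPM in Sim1Het (ratio 17.6, 10.8 to 27.4) and at 108 against 18.6 CPM in Control (ratio 5.78, 3.66 to 8.85).

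Other genes in the Control ranking ranged in ratio from 7.18 (Fign) to 15.7 (Fkbp11). Ptbp3, which encodes an RNA-binding splicing regulator, was at 368 against 36.8 CPM in Control and 346 against 29.8 CPM in Sim1Het. After thinning it was found in 18.8% of Control oxytocin-rich cells and 21.3% of Control cells with at least 10 Avp and under 10 Oxt UMIs. Tshz1, a zinc-finger factor, was at 260 against 32.3 CPM in Control and 238 against 24.9 CPM in Sim1Het. Gsta4, Parm1, Cd302, Cdh9, Fam46a and Fign were likewise above 2-fold in both libraries, whereas Fkbp11, found in 9 of 69 Control cells, had a single UMI in Sim1Het (ratio 4.81, 0.117 to 29.5). Since these genes were ranked on the same cells, their ratios can be too large.

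**Figure D2:**
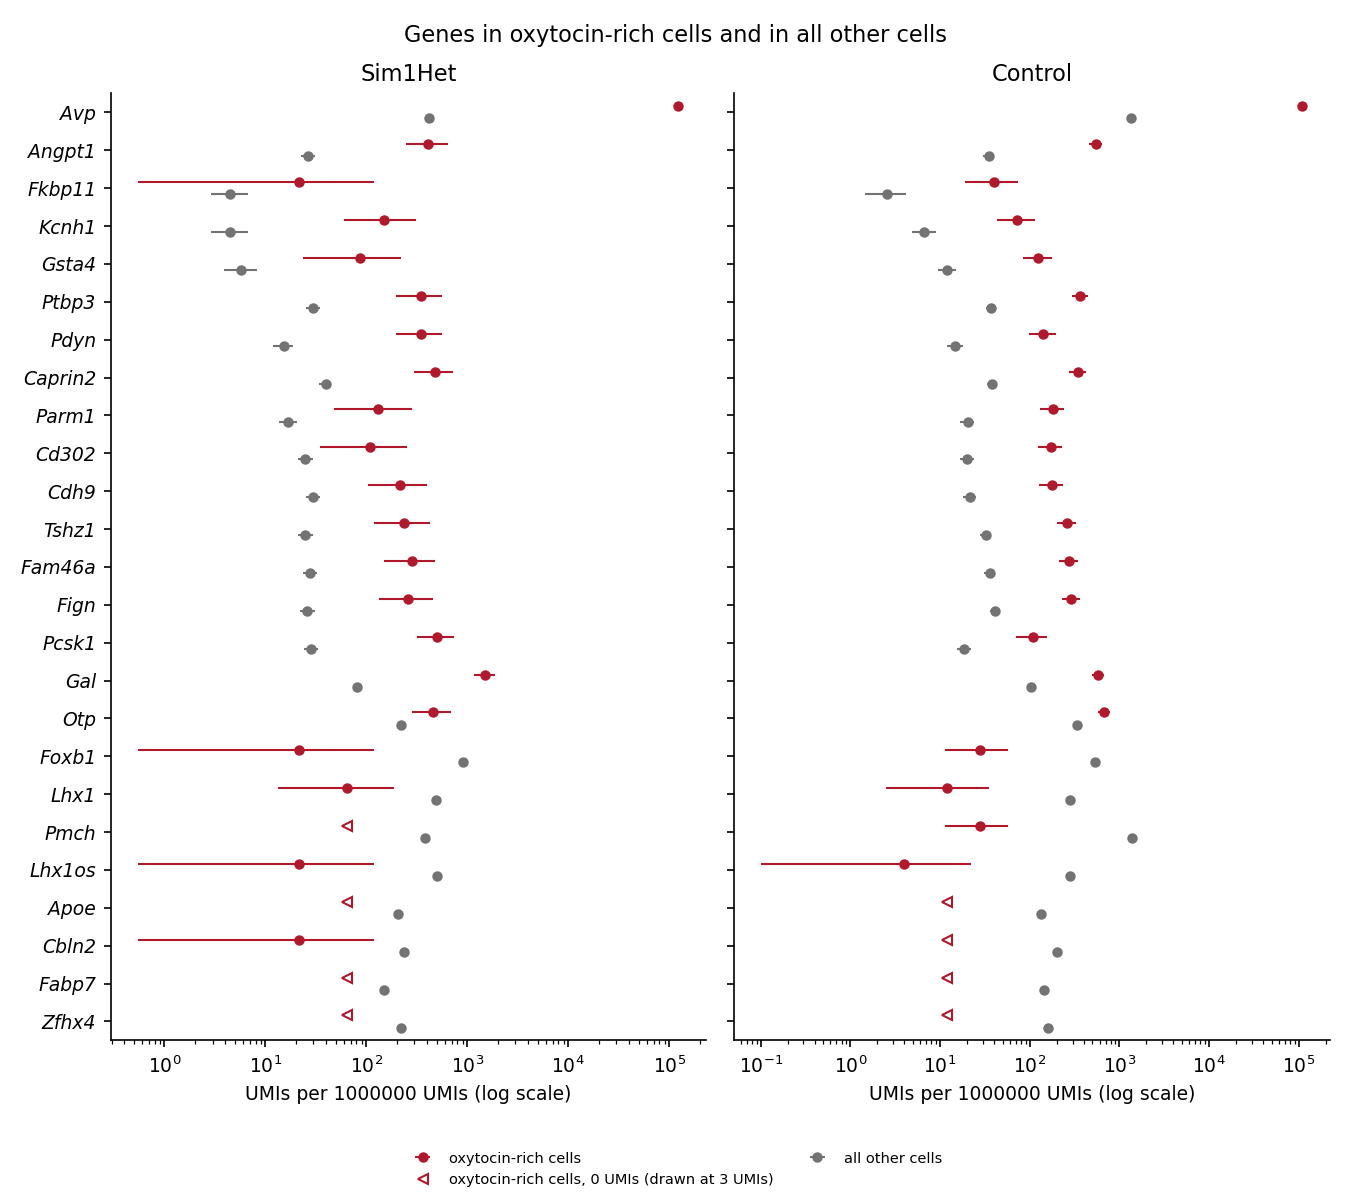
Level of each gene (rows; x axis, UMIs per 1000000 UMIs, log scale) in oxytocin-rich cells (red) and in all other cells (grey), in the Sim1Het library (left) and the Control library (right). Bars are exact 95% Poisson intervals, and open triangles stand at 3 UMIs for genes with 0 UMIs. Avp, Angpt1 and Caprin2 are higher in oxytocin-rich cells in both libraries, and genes from Foxb1 down are lower.

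The genes lowest in oxytocin-rich cells mark other cells of the sort. Apoe and Fabp7, both typical of glia, and Cbln2 and Zfhx4 had 0 UMIs in the 69 Control cells, at least 11.2-fold (Apoe), 12.1-fold (Fabp7), 17.0-fold (Cbln2) and 13.3-fold (Zfhx4) lower than in other Control cells, taking 3 UMIs in place of 0. In Sim1Het, Apoe, Fabp7 and Zfhx4 had 0 UMIs in the 10 cells and Cbln2 had 1. Foxb1 and Lhx1, transcription factors of the mammillary region, were at 21.6 and 64.8 CPM in Sim1Het oxytocin-rich cells against 907 and 493 CPM in other cells, and at 28.0 and 11.98 CPM in Control oxytocin-rich cells against 530 and 279 CPM. Pmch, the precursor of melanin-concentrating hormone, had 0 UMIs in Sim1Het and 7 in Control, where its ratio was 0.0201 (0.00809 to 0.0415) against all other cells and 1.40 against only those with an Otp UMI.

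Gene lists showed the same pattern by function. Of 21 genes, mostly transcription factors, that mark other hypothalamic and forebrain neurons, 13 were lower in Sim1Het and 19 in Control, with median log2 ratios of -1.68 and -2.85, where the medians of all genes tested were -0.33 and -0.21. Fezf2 was the 1 gene of this list called higher in either library, at 86.4 against 19.5 CPM in Sim1Het and 55.9 against 23.8 CPM in Control. Of 11 paraventricular nucleus factors, 2 were higher and 4 lower in each library, with medians of -0.47 in Sim1Het and -0.63 in Control. Pou3f3, Zfhx3 and Zfhx4 were lower in both, beside Nhlh2 in Sim1Het and Bhlhe22 in Control. Higher were Pou3f2 in both, Uncx in Sim1Het and Otp in Control. Pou3f2, a POU factor needed for oxytocin and vasopressin neurons in mice, had ratios of 3.81 (1.81 to 7.10) in Sim1Het and 5.98 (4.62 to 7.67) in Control.

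Against all other cells, genes of the secretory pathway had medians above that of all genes tested. Of 28 genes for protein folding and transport in the endoplasmic reticulum, 4 were called higher and 2 lower in Sim1Het, and 3 higher and 0 lower in Control, with medians of 0.66 and 0.64. Hspa5, the main chaperone there, had ratios of 2.03 (1.58 to 2.57) in Sim1Het and 1.75 (1.52 to 2.003) in Control. Of 16 prohormone processing genes and granins, 3 were higher in each library (Pcsk1, Pam and Ptprn), while 3 were lower in Sim1Het and 1 in Control, with medians of 0.01 and 0.15. Pam, which makes the amide end that both hormones carry, had ratios of 5.41 (3.40 to 8.21) in Sim1Het and 2.66 (1.94 to 3.58) in Control. Scg2, a granin, had a ratio of 0.829 (0.622 to 1.08) in Sim1Het and 0.424 (0.354 to 0.503) in Control.

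Transmitter genes were called only in the lower direction in both libraries. Of 7 transmitter identity genes, 2 in Sim1Het and 6 in Control were lower, and Slc17a6, the vesicular glutamate transporter, had ratios of 0.467 (0.272 to 0.748) and 0.373 (0.283 to 0.483). Of 22 neuropeptide genes, 4 were higher and 10 lower in Sim1Het and 6 were higher and 10 lower in Control. Avp, Pdyn, Gal and Cartpt were higher in both. Of 25 axon guidance genes, 14 were lower and 1 higher in Sim1Het, and 12 were lower and 2 higher in Control. Of 4 markers used to tell magnocellular from parvocellular neurons, Calb1 and Kcnmb4 were called higher in both libraries, Kcnmb4 in Sim1Het on 3 UMIs with an interval that includes 1 (ratio 3.36, 0.682 to 10.1). Cnr1 was called lower in Sim1Het. This did not hold for the Control low-Avp cells alone, where 0 of the 4 were called against all other cells. Compared with high-Avp Control cells, these had Calb1 and Kcnmb4 called lower and Cnr1 and Reln called higher. The 4 genes summed to only 22 UMIs in the low-Avp and 118 UMIs in the high-Avp Control cells. After thinning, Calb1 was found in 4 of 19 low-Avp and 16 of 50 high-Avp cells, and Kcnmb4 in 0 and 8. Cnr1 was then found in 1 of 19 and 0 of 50 cells and Reln in 0 of both, so their direction is uncertain. All 10 glial markers, all 5 microglial and all 5 fibroblast markers had 0 UMIs in the oxytocin-rich cells of both libraries. In other cells these lists summed to 166, 2.43 and 3.74 CPM in Sim1Het and to 113, 15.0 and 37.45 CPM in Control. At such low levels, 0 microglial and fibroblast UMIs in the Sim1Het cells say little. The 5 oligodendrocyte lineage markers summed to 1 UMI in Sim1Het (21.6 against 67.2 CPM in other cells) and 14 UMIs in Control (55.9 against 79.8 CPM), and the 4 endothelial markers to 1 UMI in Sim1Het and 0 in Control.

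**Figure D3:**
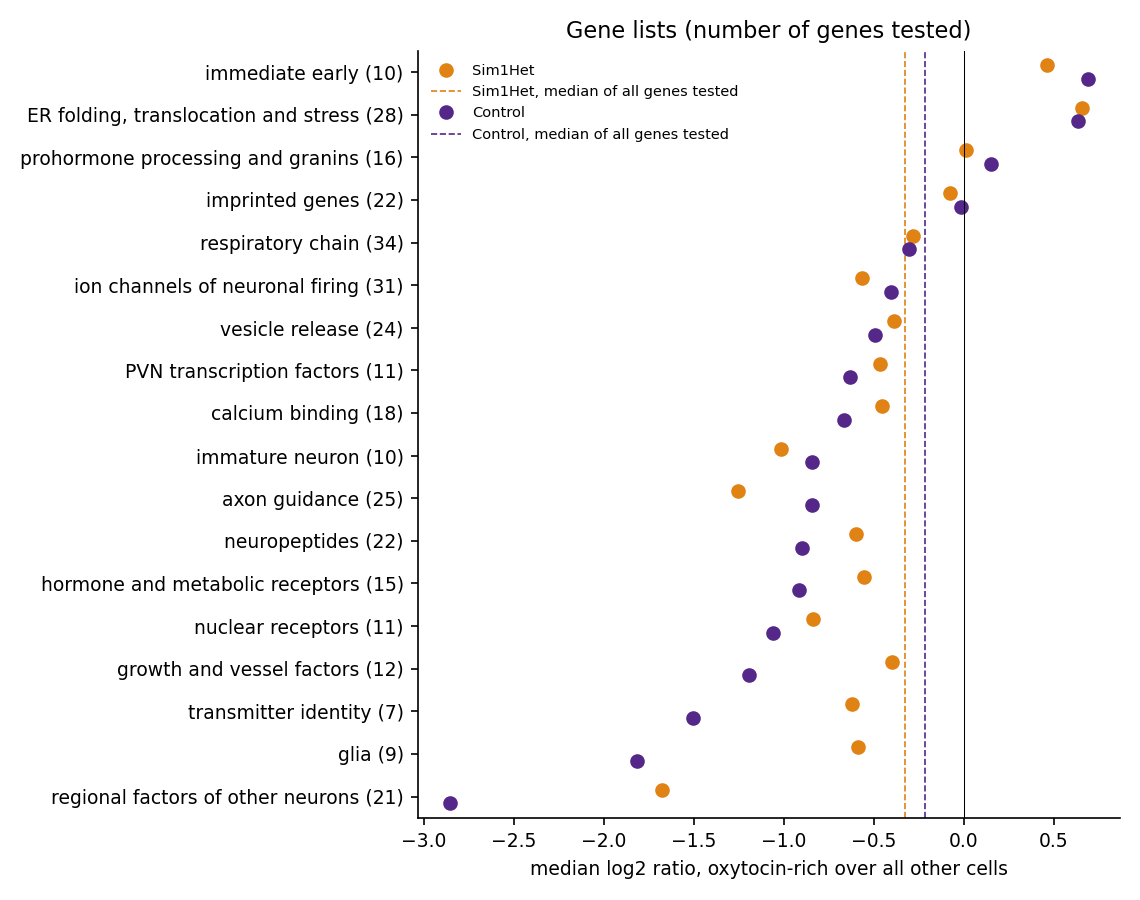
Median log2 ratio of oxytocin-rich over all other cells (x axis) for gene lists (rows, with the number of genes tested), in the Sim1Het library (orange) and the Control library (purple). Dashed lines are the medians of all genes tested. The endoplasmic reticulum list lies at 0.66 in Sim1Het and 0.64 in Control, and the list of regional factors of other neurons lies lowest of those drawn in both, at -1.68 and -2.85.

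Immediate early genes, which are switched on by activity or by handling, had a median of 0.46 in Sim1Het and 0.69 in Control, and 0 of 10 were called in Sim1Het and 3 in Control. Fos was at 43.2 against 48.8 CPM in Sim1Het (ratio 0.884, 0.107 to 3.23) and at 188 against 26.8 CPM in Control (ratio 7.01, 4.96 to 9.74), with a UMI in 2 of 10 and 22 of 69 oxytocin-rich cells. The part of dissociation in these levels was not tested.

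The low-Avp and high-Avp Control cells differed in genes beyond the hormones, though how many is uncertain. Of the 12952 genes, 10.6% were higher and 7.84% lower in low-Avp cells, in sets of 62505 and 187813 UMIs. These shares were near those of Control oxytocin-rich against vasopressin-rich cells, 9.23% and 11.1%. A gene with 1 UMI in low-Avp and 0 in high-Avp cells stands at the 2-fold limit, and no larger pseudocount was run for this split. The genes named here were ranked after the split was seen. The balance depended on the scaling: the 1379 higher and 1015 lower genes became 1490 and 1674 with CPM computed without Oxt and Avp, and 1706 and 1559 as a mean over cells. Angpt1 had 2 UMIs in 19 low-Avp cells against 135 in 50 high-Avp cells, a ratio of 0.0445 (0.00534 to 0.164). Gal had 3 against 142 UMIs (ratio 0.0635, 0.0129 to 0.189) and Dlk1, an imprinted gene for a Notch-like membrane protein, 3 against 138 UMIs (ratio 0.0653, 0.0133 to 0.195). Cartpt, the precursor of the CART peptide, had 0 against 85 UMIs, at least 9.43-fold lower taking 3 UMIs in place of 0. Caprin2 had a ratio of 0.351 (0.155 to 0.702) and Calb1 of 0.465 (0.238 to 0.839).

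Other genes were higher in the low-Avp than in the high-Avp cells. Tshz2, a zinc-finger factor related to Tshz1, had 29 UMIs in 12 of 19 low-Avp cells against 1 UMI in 50 high-Avp cells. Calb2, the calcium-binding protein calretinin, had 24 against 4 UMIs (ratio 18.03, 6.19 to 71.5), and Pcp4, a regulator of calmodulin, 85 against 28 UMIs (ratio 9.12, 5.89 to 14.5). In all other Control cells Calb2 was at 323 and Pcp4 at 1330 CPM, beside 24 and 85 of 62505 UMIs in low-Avp cells. Penk, the enkephalin precursor, had 14 UMIs in 5 low-Avp cells against 0 in high-Avp cells, with 9 of the UMIs in 1 cell. Ntm, a neuronal adhesion protein, was found in 15 of 19 low-Avp and 6 of 50 high-Avp cells. Otp, at 752 against 655 CPM, had a ratio whose interval includes 1 (1.15, 0.802 to 1.62), as did Pdyn (0.890, 0.350 to 2.01).

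By list, 7 of 24 vesicle release genes were higher in low-Avp cells and 1 was lower (median 0.67, against 0 over all genes tested), among the higher Snap25 and Stx1a, which drive the fusion of vesicles with the membrane. Of 18 calcium-binding genes, 6 were higher and 2 lower (median 0.57). Of 10 genes of immature neurons, 4 were higher (Sox4, Tubb3, Tubb2b and Gap43) and 1 lower. Of 28 endoplasmic reticulum genes, 1 was higher and 5 were lower (median -0.21). Beside all other Control cells, low-Avp cells had 0 of 24 vesicle release genes higher and 2 lower (median 0.06). Of the 18 calcium-binding genes, 1 was higher (S100a10) and 3 were lower (median -0.06), and Calb2 was not called. Of the 10 immature neuron genes, 0 were higher and 2 lower (median -0.29). Of the endoplasmic reticulum genes, 4 were higher and 2 lower (median 0.35), where all genes tested had a median of -0.21.

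**Figure D4:**
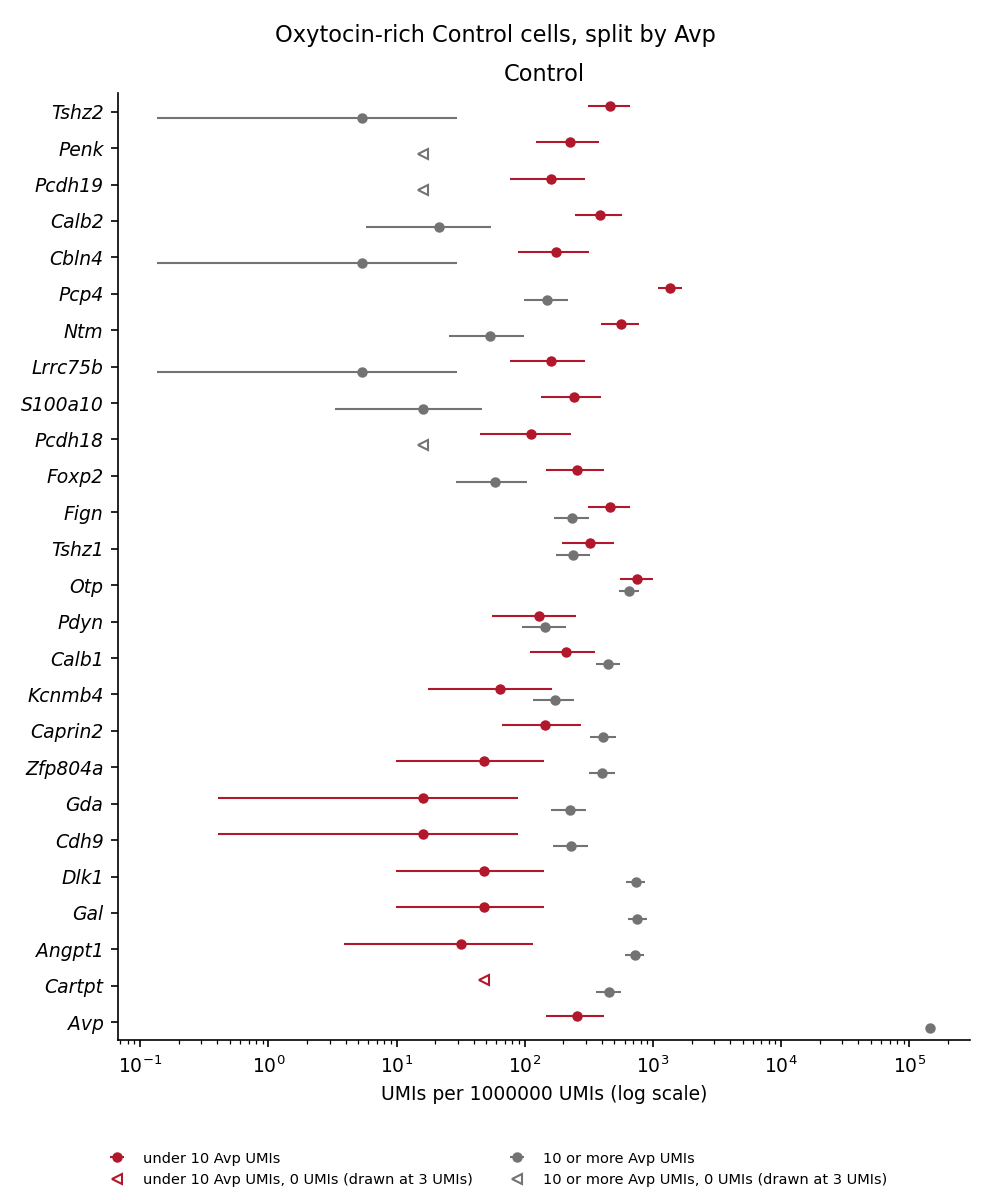
Level of each gene (rows; x axis, UMIs per 1000000 UMIs, log scale) in Control oxytocin-rich cells with under 10 Avp UMIs (red, 19 cells) and with 10 or more (grey, 50 cells). Bars are exact 95% Poisson intervals, and open triangles stand at 3 UMIs for genes with 0 UMIs. Tshz2, Calb2 and Pcp4 are higher in the low-Avp cells, Angpt1, Gal and Dlk1 are lower, and Otp and Pdyn lie close together.

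The 2 Sim1Het low-Avp cells, with 5510 UMIs in all, were too few for the same comparison. They had 0 Dlk1 and 0 Cartpt UMIs and 1 UMI each of Gal, Angpt1, Tshz2 and Otp, against 29, 88, 68, 18, 0 and 20 UMIs of Dlk1, Cartpt, Gal, Angpt1, Tshz2 and Otp in the 8 high-Avp cells. Pcp4 had 4 against 3 UMIs, each sum from 1 cell.

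Set against all other Control cells, the low-Avp cells kept part of the pattern. In this comparison 4.35% of genes were higher and 11.2% lower. Ghrh, the growth hormone-releasing hormone gene, was at 240 against 15.0 CPM (ratio 16.02, 8.62 to 27.8), with UMIs in 5 of 19 cells. Fign had a ratio of 11.4 (7.49 to 16.8), Tshz1 of 9.89 (5.92 to 15.7), Oprk1, the kappa opioid receptor at which dynorphin acts, of 9.51 (4.22 to 18.8), and Foxp2, a forkhead factor, of 8.07 (4.53 to 13.4). Caprin2 was at 144 against 37.8 CPM (ratio 3.81, 1.72 to 7.36), while Angpt1 was at 32.0 against 34.9 CPM (ratio 0.917, 0.110 to 3.35). In the high-Avp cells the Angpt1 ratio to other cells was 20.6 (16.5 to 25.6).

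Oxytocin-rich cells were also set against cells with at least 10 Avp and under 10 Oxt UMIs, of which there were 18 in Sim1Het and 61 in Control. In Sim1Het 9.68% of genes were higher and 15.7% lower, and in Control 9.23% and 11.1%. As a mean over cells, the 1254 higher and 2028 lower genes of Sim1Het became 1572 and 1401. By list, Control medians were 0.005 for endoplasmic reticulum, 0.09 for prohormone, 0 for transmitter, -0.09 for axon guidance and -0.17 for immediate early genes. In Sim1Het they were 0.19, 0.04, 0, -0.31 and -0.13. All genes tested had a median of 0 in both libraries. The differences of these lists from all other cells were thus largely shared with vasopressin-rich cells and not particular to oxytocin-rich cells. In Control the marker ratios had intervals that include 1: Angpt1 at 1.27 (0.914 to 1.79), Caprin2 at 0.815 (0.567 to 1.18) and Otp at 0.805 (0.624 to 1.04). In Sim1Het Caprin2 was lower in oxytocin-rich cells, with a ratio of 0.524 (0.285 to 0.949), and Angpt1 had a ratio of 0.745 (0.367 to 1.52). Crh, the corticotropin-releasing hormone gene of parvocellular neurons, was at 0 against 551 CPM in Sim1Het, at least 8.51-fold lower taking 3 UMIs in place of 0. In Control it was at 59.9 against 818 CPM (ratio 0.0733, 0.0395 to 0.127), with 14 of the 15 UMIs of the oxytocin-rich cells in 1 cell. Nr3c1, the glucocorticoid receptor gene, had a Control ratio of 0.161 (0.0624 to 0.374) and Scg2 of 0.2502 (0.201 to 0.311), whereas in Sim1Het Scg2 had a ratio of 2.12 (1.21 to 3.89). Foxp2 had 27 UMIs against 0 in Control, at least 4.18-fold higher taking 3 UMIs in place of 0, and 9 against 0 in Sim1Het. When only high-Avp cells were set against Control cells with at least 100 Avp and under 10 Oxt UMIs, Angpt1 had a ratio of 1.02 (0.728 to 1.46), Gal of 0.918 (0.666 to 1.28) and Dlk1 of 0.845 (0.616 to 1.17).

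Between genotypes, the oxytocin-rich cells were compared with the other cells beside them, since a difference found in all cells of a library is not particular to these cells. Of the 12952 genes, 6.66% were higher and 10% lower in Sim1Het than in Control oxytocin-rich cells. Sim1 itself was at 151 against 204 CPM in oxytocin-rich cells (7 against 51 UMIs, ratio 0.742, 0.284 to 1.64) and at 91.1 against 108 CPM in other cells (ratio 0.840, 0.746 to 0.945). No label says which part of Sim1 the lost copy lacks, so these 3' counts do not check the genotype. Otp had a ratio of 0.668 (0.403 to 1.05) in oxytocin-rich cells and 0.661 (0.615 to 0.710) in other cells.

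Of 22 neuropeptide genes, 5 were higher in Sim1Het oxytocin-rich cells (Pdyn, Gal, Cartpt, Grp and Pthlh) and 6 lower, and of 16 prohormone processing genes and granins, 5 were higher (Pcsk1, Pam, Scg2, Chga and Vgf) and 1 lower. Low-Avp cells, which differ in Gal and Cartpt, were 2 of 10 cells in Sim1Het and 19 of 69 in Control, so values within high-Avp cells are given too. Cartpt was at 1900 against 340 CPM (ratio 5.60, 4.11 to 7.63), with 47 of the 88 Sim1Het UMIs in 1 cell, and at 212 against 136 CPM in other cells. Within high-Avp cells its ratio was 4.77 (3.50 to 6.50). Gal had a ratio of 2.57 (1.90 to 3.45) in oxytocin-rich cells, 2.21 (1.63 to 2.96) within high-Avp cells and 0.780 (0.690 to 0.882) in other cells. Pcsk1 had a ratio of 4.61 (2.52 to 8.34) in oxytocin-rich cells, 3.98 (2.04 to 7.70) within high-Avp cells and 1.51 (1.18 to 1.95) in other cells.

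Some differences stood in the whole library. Hspa8, a heat shock cognate gene, had a ratio of 16.2 (4.05 to 93.1) in oxytocin-rich cells and 15.9 (13.1 to 19.3) in other cells. Gh, the growth hormone gene of the pituitary, had 0 UMIs in every Sim1Het cell, against 49 UMIs in 31 of 69 Control oxytocin-rich cells and 2158 UMIs in other Control cells. Others were not alike in the rest of the library. Cdkn1a, a cell cycle inhibitor, had a ratio of 8.11 (3.05 to 22.9) in oxytocin-rich cells on 12 against 8 UMIs, and 1.15 (1.08 to 1.23) in other cells. Msmo1, an enzyme of cholesterol synthesis, had a ratio of 9.73 (2.93 to 37.0) on 9 against 5 UMIs, and 0.826 (0.739 to 0.924) in other cells. Nefm, a neurofilament subunit, had 4 against 150 UMIs (ratio 0.144, 0.0388 to 0.377), and a ratio of 1.41 (1.34 to 1.49) in other cells. Tbca, a tubulin folding factor, had 11 against 242 UMIs (ratio 0.246, 0.121 to 0.448), and 0.738 (0.694 to 0.785) in other cells. Atp6v1g1, a subunit of the vesicle proton pump, had 0 against 41 UMIs, at least 2.53-fold lower, and a ratio of 0.965 (0.874 to 1.06) in other cells. With 10 Sim1Het cells, 46304 UMIs in all, these values can turn on a few cells.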

How the data were processed

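Drop-seq was run on sorted tdTomato-positive hypothalamus cells, with 1 library per genotype. The authors deposited raw UMI counts per gene and barcode, as a table per library and a merged table whose values were identical (0 differing values and 0 shared barcodes). Per the submitters' processing notes, bcl2fastq, Picard, STAR 2.6.0b, Seurat 3 and the build mm10 were used, without stated roles. No source used here gives the counter, annotation, use of strand or rule for calling cells, so reads of overlapping genes on the other strand, as at Angpt1, Kcnh1, Nefm, Nf1 and Ntm, may be included. The merged table held 24905 genes and 5283 barcodes, with 5397693 UMIs in Sim1Het and 6525080 in Control. Barcodes under 300 genes were left out (22 Sim1Het and 1 Control, with 0 Oxt UMIs). No doublet caller was run, and an alternative leaves out the deepest cells. UMIs were summed over cells to CPM with Python 3.11.15, numpy 2.4.6, scipy 1.17.1 and pandas 2.3.3. Exact Poisson, conditional binomial and Clopper-Pearson intervals at 95% were used and checked on simulated sums. Where a set held 0 UMIs of a gene, 3 UMIs stood in. Genes were named by the bound of the ratio's interval nearest to 1, leaving out Oxt, mitochondrial, ribosomal, sex-linked and unnamed genes, with fixed markers and up to 4 genes per list. The cells, lists and rules were chosen with earlier results of these data known, and the split by Avp after its values were seen.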

Additional observations from a re-analysis of the deposited data

Results flagged for a closer look

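In 4 of the named genes the oxytocin-rich cells differed from other cells in opposite directions in the libraries, with counting intervals that leave out 1 in both. Genes that were not named were not searched. Lmo4, Nefm and Nf1 were named for their difference between the libraries in these same cells, so opposite directions were partly selected for. The difference between the libraries was not tested. Calm2, a calmodulin gene, had a ratio to other cells of 0.797 in Sim1Het and 1.12 in Control. Lmo4, a LIM-domain transcription cofactor, had a ratio of 0.144 in Sim1Het, on 1 UMI, and 1.38 in Control, on 78 UMIs. Nefm had a ratio of 0.157 in Sim1Het, on 4 UMIs, and 1.54 in Control, on 150 UMIs. Nf1, a regulator of Ras, had a ratio of 3.61 in Sim1Het, on 6 UMIs, and 0.147 in Control, on 1 UMI. Of these genes, only Calm2 had more than 10 UMIs in the oxytocin-rich cells of both libraries.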

How the results depend on the processing

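No paired analysis was possible because there is 1 library per genotype. Counts of called genes depended on the pseudocount. With 3 UMIs in place of 1, genes against other cells numbered 96 higher and 345 lower in Sim1Het (512 and 1787 before) and 183 higher and 826 lower in Control (436 and 2238 before). Against vasopressin-rich cells they numbered 145 and 303 in Sim1Het and 210 and 270 in Control, and Sim1Het over Control 92 and 162. With at least 200 UMIs per gene, 329 were higher in Sim1Het, and 167 higher and 1137 lower in Control. With at least 1 UMI, 771 were higher in Control, and 685 with CPM computed without Oxt and Avp. With at least 20 Oxt UMIs, the lower genes in Sim1Het numbered 1067 against other cells and 1182 against vasopressin-rich cells, and 783 over Control. Genes lower in low-Avp than in high-Avp cells (1015) numbered 1674 without Oxt and Avp and 1559 as the mean of the cells' own CPM, both alternatives chosen after seeing the data.

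The Avp ratio to other cells was 294 in Sim1Het and 80.7 in Control. In Sim1Het it was 374 at 5 Oxt UMIs, 89.3 at 20, 339 without Oxt and Avp, 178 as a mean over cells, 268 without the deepest cells and 189 against cells with an Otp UMI. In Control it was 162 at 5 Oxt UMIs, 39.0 at 20, 91.6 without Oxt and Avp, 65.1 as a mean over cells and 37.5 against cells with an Otp UMI. Against cells with an Otp UMI, Control Caprin2 was 6.37 and Angpt1 8.98, Pmch turned to 1.40, and Otp turned to 0.480 in Sim1Het and 0.645 in Control, where the comparison cells are chosen for Otp. At 20 Oxt UMIs, the Sim1Het Angpt1 ratio was 3.30.

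The share of oxytocin-rich cells in Sim1Het was 0.163% at 20 Oxt UMIs, at 5 UMIs after thinning, and with Oxt at 0.5% of UMIs or more. In Control it was 3.17% at 5 and 1.71% at 20 Oxt UMIs. Avp was at 112958 CPM as a mean over cells, 116878 at 5 and 98362 at 20 Oxt UMIs in Sim1Het, and at 115102, 106599 and 103093 CPM in Control, or 119030 without the deepest cells. Oxt as a percentage of Oxt plus Avp was 6.99% in Sim1Het, 22.2% as a mean over cells and 14.5% at 20 Oxt UMIs. In Control it was 9.35%, 30.3% as a mean over cells, 8.52% at 5 and 11.7% at 20 Oxt UMIs. For named genes other than the fixed markers, 137 of 138 values against other cells kept their direction (all but Pmch). So did 39 of 39 between low-Avp and high-Avp Control cells and 39 of 39 between genotypes. These genes were named for ratios far from 1 in the same cells, so a kept direction was likely beforehand and is no independent check. The 10 Sim1Het cells hold 46304 UMIs, so genes with few UMIs there cannot be compared with precision, and no alternative replaces a second library.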

Other observations

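Beside Gal, Pdyn and Cartpt, transcripts of other hormones were found in few of the oxytocin-rich cells. Ghrh was found in 0 of 10 Sim1Het and 11 of 69 Control cells, with at most 9 UMIs. Cck, the cholecystokinin gene, was found in 1 Sim1Het and 8 Control cells, 5 of the 8 being low-Avp cells, with at most 13 UMIs. Sst, the somatostatin gene, was found in 3 Control cells, 21 of its 23 UMIs in 1 cell. Trh, the thyrotropin-releasing hormone gene, had 0 UMIs in all 79 cells. Outside the oxytocin-rich cells, 50 Oxt UMIs lay in 24 Sim1Het cells and 270 in 116 Control cells, so the oxytocin-rich cells held 89.5% and 91.3% of all Oxt UMIs of their libraries.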
